A study of Danio rerio with 12 samples.

Results

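The genes described here encode subunits of the oxidative phosphorylation complexes, measured in zebrafish larval tails that had been cut or left uncut. They were chosen by a rule on names, with earlier results of these data known. The rule took rows whose gene symbol begins with one of the standard subunit stems (ndufa, ndufb, ndufc, ndufs, ndufv, sdha to sdhd, uqcr, cox4 to cox8 and atp5), without ndufa4b and the ndufaf genes. The stems matched 99 of 30258 gene IDs, and the 92 with at least 10 counts in at least 3 libraries were kept. Complex I had 37 of them, complex II 8, complex III 8, complex IV 19 and complex V 20, and all 92 entered the test across genes. The 7 matches left out for low counts were cox4i1l, NDUFA4L2, ndufa4l2b, ndufa9b, NDUFS1 and a further ID each of COX5B and SDHD. Of the 92, 7 matched by spelling and are not subunits, namely the complex II assembly factors sdhaf1, SDHAF2, SDHAF3 and SDHAF4, the ATP synthase inhibitors atp5if1a and atp5if1b, and COX7A2L, a factor that joins complexes III and IV. NDUFA4 was counted with complex I by its name, although its protein is now placed in complex IV. Symbols are spelled as the symbol table gives them, letter case included.

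There were 12 libraries in 4 groups of 3, all from wild-type larvae per the labels. The groups were tails cut under the vehicle dimethyl sulfoxide (DMSO), uncut tails under DMSO, tails cut under SB431542, and uncut tails under SB431542. The cut took about 200 µm off the tail when larvae were 72 hours old, counted from fertilisation, and after 18 hours a further 200 µm was collected for RNA. Uncut larvae gave the matching region at 90 hours. SB431542, an inhibitor of the kinase activity of type I TGF-beta receptors, was given at 50 µM throughout those hours, and DMSO at 0.1%. Each library came from 100 tails, and since the labels name no clutch or mating, p-values measure the spread between pools, which may be partly technical.

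Oxidative phosphorylation takes place at the inner mitochondrial membrane. Complex I takes electrons from NADH and complex II from succinate, complex III passes them to cytochrome c, and complex IV gives them to oxygen, while complexes I, III and IV pump protons whose return through complex V, the ATP synthase, makes ATP. Most subunits are encoded in the nucleus, and 13 in the mitochondrial genome, and skeletal muscle is among the tissues rich in them. Levels are given as CPM, a gene's count over its library's size once that size was adjusted by the trimmed mean of M-values (TMM), a scaling that sets most genes as equal between libraries. The libraries read the 3' end of each transcript, so a level needs no correction for transcript length, and no sequence or isoform difference is measured.

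Total counts ran from 7368986 to 12914981 per library. In cut tails of the DMSO group, replicate 4 lay above the other libraries of its group for most of these genes. Its median deviation was 0.33 on the log2 scale, and 78 of the 92 genes were above their group mean. In that library 25 of the 92 lay more than 0.5 log2 units from the group mean, the most of any library. In uncut tails under SB431542, replicate 4 had the widest spread of deviations over these genes, with 0.55 log2 units between the quartiles. There 20 of the 92 lay more than 0.5 log2 units from the group mean. It also had the lowest median correlation with the other libraries, 0.905 against 0.934 to 0.944 for the rest. In these bulk samples, fewer cells of a type and less RNA per cell cannot be told apart.

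In uncut tails under DMSO the 92 genes together held 3.61 ± 0.169% of all counts (SD, n = 3). Complex V was the most abundant with 44.0 ± 0.448% of their summed CPM, followed by complex I with 24.7 ± 0.397%, complex IV with 20.4 ± 0.707%, complex III with 8.05 ± 0.326% and complex II with 2.75 ± 0.247%. By group means the order was the same in all 4 groups. Complexes I and IV were closest in cut tails, at 23.6 ± 0.345% and 22.5 ± 0.806% under DMSO. The rank of complex I above complex IV rests on NDUFA4 being counted with complex I. In cut tails under DMSO the summed means were 7402 and 7030 CPM, and NDUFA4 alone averaged 616 CPM. With NDUFA4 in complex IV, complex IV would lead complex I in both cut groups and in uncut tails under SB431542. In uncut tails under DMSO, at 10368 and 8558 CPM with 903 CPM of NDUFA4, they would be about level. By gene, the mean over the 12 libraries ran from 1.34 to 3872 CPM. The most abundant of the 92 was ATP5F1B (ENSDARG00000070083), the catalytic beta subunit of the ATP synthase. The leading genes matched by name in the other complexes were COX4I1 at 1067 CPM, NDUFS7 at 897 CPM, UQCRB at 595 CPM and SDHA at 344 CPM.

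Cut tails held less mRNA of all 5 complexes than uncut tails, relative to most other genes, both under DMSO and under SB431542. Under DMSO the 92 genes summed to 29506, 27712 and 36639 CPM in cut tails, against 41166, 38455 and 46073 CPM in uncut tails. The groups did not overlap, and the means differed by -25.3% (31286 ± 4722 CPM, against 41898 ± 3862 CPM in uncut tails, SD, n = 3 each). Under SB431542 the sums were 30881, 28423 and 32558 CPM in cut tails, against 40505, 40915 and 39936 CPM in uncut tails. These did not overlap either, and the means differed by -24.3%.

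The size of this difference depends on the scaling. Scaled by total counts, without TMM, the members' median log2 fold change was -0.03 under DMSO and -0.08 under SB431542, with 52 and 71 of the 92 genes below 0, while the median of all 13978 genes tested stood at 0.36 and 0.30. With TMM the members' medians were -0.37 and -0.38, against medians of 0.02 and 0.00 over all genes. The genes lay below the median gene by a similar amount on both scales. A change of library sizes shifts the log2 fold changes of all genes about equally. That likeness was therefore fixed in advance and is no separate support. As a plain share of library counts they made up 3.33%, 3.25% and 3.56% in cut tails under DMSO, against 3.71%, 3.42% and 3.70% in uncut tails, and the highest cut library exceeded the lowest uncut one. Under SB431542 the shares were 3.46%, 3.49% and 3.51% in cut tails, against 3.90%, 3.69% and 3.65% in uncut tails, which did not overlap. Calls over all genes were 510 higher and 270 lower with TMM and 1860 higher and 98 lower with total counts, in cut against uncut tails under DMSO.

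**Figure D1:**
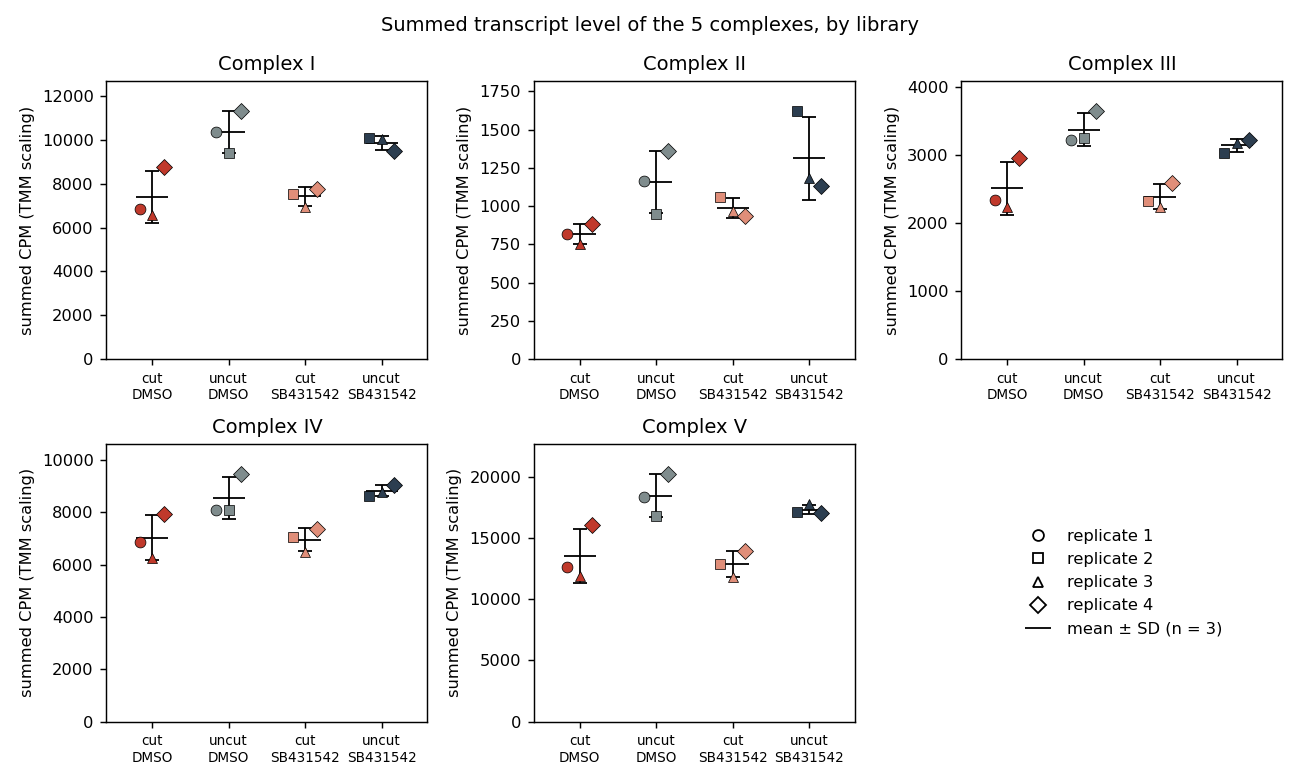
Summed level of each complex (vertical axis, CPM with TMM scaling, from 0) in each library of the 4 groups (horizontal axis); points are libraries, with marker shape giving the replicate number, and bars the mean ± SD. Every cut library lies below every uncut library of the same treatment in all 5 complexes; with total-count scaling the complex IV ratio under DMSO changes sign to 0.05 on the log2 scale.

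Complex I sums were 6862, 6582 and 8763 CPM in cut tails under DMSO, against 10373, 9403 and 11328 CPM in uncut tails, a log2 ratio of the means of -0.49. Complex II had 819, 751 and 886 CPM in cut tails and 1166, 951 and 1357 CPM in uncut tails, a ratio of -0.50. Complex III had 2339, 2230 and 2955 CPM in cut tails and 3218, 3240 and 3646 CPM in uncut tails, a ratio of -0.43. In none of these 3 complexes did the cut and uncut libraries overlap. Complex IV, at 6879, 6260 and 7952 CPM in cut tails against 8096, 8098 and 9481 CPM in uncut tails, had the smallest ratio of the 5, -0.28. Complex V had 12608, 11889 and 16083 CPM in cut tails and 18312, 16763 and 20261 CPM in uncut tails, a ratio of -0.45. With total-count scaling these ratios were -0.16, -0.16, -0.10, 0.05 and -0.12 for complexes I to V, so that the sign for complex IV turned. Under SB431542 the ratios were -0.41, -0.41, -0.40, -0.34 and -0.43, again with no overlap in any complex.

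By gene, 9 of the 92 were lower in cut than in uncut tails under DMSO at an adjusted p under 0.05, by edgeR's quasi-likelihood test with Benjamini-Hochberg adjustment, and none was higher. Of all genes tested, 1.93% were called lower and 3.65% higher. DESeq2 called 21 of the 92 lower, with the 9 among them, and 417 of the 13978 genes lower. At an unadjusted p under 0.05, 47 of the 92 were lower and 0 higher, against 8.96% of all genes lower. Cut and uncut libraries did not overlap, with cut lower, for 43 of the 92 and for 13.1% of all genes. Below 0 lay 90 of the 92 log2 fold changes with TMM scaling, beside 48.5% of all genes. With total counts 52 of the 92 did, where the median of all genes was 0.36, well above 0. Most of the 92 were among the 1609 genes that averaged at least 50 CPM, and abundant genes were more often lower than all genes. Of these 1609, 140 were called lower and 88 higher. At an unadjusted p under 0.05, 416 of them were lower by edgeR, and 481 were lower without overlap. With TMM scaling 1050 of them lay below 0, and their median log2 fold change was -0.16.

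**Figure D2:**
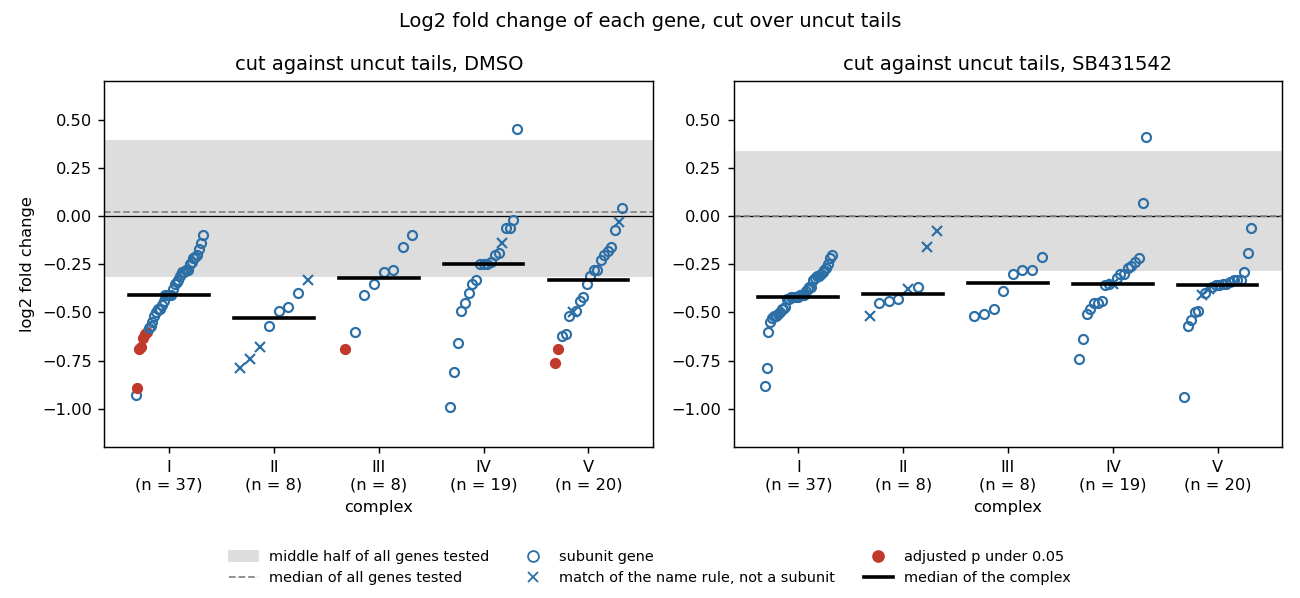
Log2 fold change of each of the 92 genes, cut over uncut tails (vertical axis), by complex (horizontal axis), under DMSO (left) and under SB431542 (right); red points are called at an adjusted p under 0.05, crosses are name matches that are not subunits, thick bars are medians, and the grey band spans the quartiles of all genes tested. With TMM scaling, which is plotted, 90 of the 92 genes lie below 0 in each panel. With total-count scaling 52 and 71 do, where the medians of all genes tested are 0.36 and 0.30.

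Complex I held 6 of the 9 called genes. NDUFS7 (ENSDARG00000074552), a core subunit that carries the iron-sulfur cluster next to the ubiquinone site, had 556, 525 and 933 CPM in cut tails under DMSO, against 1421, 982 and 1325 CPM in uncut tails. The groups did not overlap, although the highest cut library, replicate 4, came close to the lowest uncut library, and the log2 fold change was -0.89 ± 0.24 (SE; adjusted p = 0.0374, edgeR). The accessory subunit ndufa11 (ENSDARG00000042777) of the membrane arm had 176, 173 and 251 CPM in cut tails and 324, 312 and 332 CPM in uncut tails, with each cut library well below each uncut one (-0.69 ± 0.18, adjusted p = 0.0266, edgeR). NDUFA2 (ENSDARG00000021984), an accessory subunit of the matrix arm, had 162, 155 and 215 CPM in cut tails and 271, 278 and 304 CPM in uncut tails, also without overlap (-0.68 ± 0.18, adjusted p = 0.0288, edgeR).

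NDUFB2 (ENSDARG00000045490), an accessory subunit of the membrane arm, had 362, 348 and 456 CPM in cut tails and 560, 546 and 672 CPM in uncut tails (-0.61 ± 0.16, adjusted p = 0.0318, edgeR). The other called genes of complex I were ndufa5 and ndufv3, accessory subunits of the matrix arm, with log2 fold changes of -0.60 ± 0.16 and -0.63 ± 0.18 and adjusted p = 0.0322 and 0.0476 by edgeR. These last 2 are named to complete the count and were chosen after their values were seen. All 37 genes of complex I had a fold change below 0 with TMM scaling, from -0.93 to -0.10, with a median of -0.41. The extreme value, -0.93 ± 0.30, belonged to NDUFA1, an accessory subunit of the membrane arm. It had 293, 222 and 352 CPM in cut tails and 565, 426 and 660 CPM in uncut tails, which did not overlap. It missed the threshold by edgeR (adjusted p = 0.0884) and was called by DESeq2 (adjusted p = 0.0349).

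In complex II none of the 8 genes was called by edgeR, while DESeq2 called SDHC and SDHAF4, and all 8 were below 0 with TMM scaling, with a median of -0.53, or -0.48 over the 4 subunits alone. SDHA, the flavoprotein that oxidises succinate, had 248, 233 and 289 CPM in cut tails under DMSO, against 369, 257 and 442 CPM in uncut tails. Its groups overlapped, and the log2 fold change was -0.47 ± 0.20 (adjusted p = 0.190, edgeR). SDHC, one of the membrane anchors, had 182, 160 and 137 CPM in cut tails and 260, 200 and 251 CPM in uncut tails (-0.57 ± 0.17, adjusted p = 0.0571, edgeR, and 0.0213, DESeq2). Among the assembly factors, SDHAF4, which helps SDHA join SDHB, had the most negative value, -0.79 ± 0.25 (adjusted p = 0.0664, edgeR, and 0.0475, DESeq2).

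In complex III the gene called by edgeR was UQCRB (ENSDARG00000011146), a small subunit at the ubiquinone-binding part of the complex. It was the most abundant of the complex III genes matched by name. It had 396, 407 and 583 CPM in cut tails under DMSO, against 711, 752 and 768 CPM in uncut tails, with no overlap (-0.69 ± 0.17, adjusted p = 0.0180, edgeR). The remaining 7 genes ran from -0.60 to -0.10, and DESeq2 also called UQCR10, at -0.60 (adjusted p = 0.0560, edgeR, and 0.0288, DESeq2). The core proteins UQCRC1, uqcrc2a and UQCRC2 stood at -0.35, -0.28 and -0.10, and the Rieske iron-sulfur protein UQCRFS1 at -0.29, none of them called.

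In complex V edgeR called ATP5F1B and ATP5MG, and DESeq2 also called ATP5F1D, ATP5PF, atp5md, atp5mea and atp5meb. ATP5F1B had 2625, 2544 and 3953 CPM in cut tails under DMSO, against 5370, 4459 and 5627 CPM in uncut tails, with no overlap (log2 fold change -0.76 ± 0.18, or -41.0%, adjusted p = 0.0156, edgeR). It was the one member that stayed called lower with total-count scaling. ATP5MG (ENSDARG00000011841), subunit g of the membrane part, had 889, 910 and 1421 CPM in cut tails and 1745, 1624 and 1838 CPM in uncut tails (-0.69 ± 0.18, adjusted p = 0.0272, edgeR). Of the subunits beside ATP5F1B in the catalytic head, ATP5F1A, the alpha subunit, stood at -0.16 ± 0.16 and ATP5F1C, of the central shaft, at -0.18 ± 0.17, neither of them called. The further ATP5F1 genes were more negative. ATP5F1D stood at -0.49 ± 0.16 (adjusted p = 0.0840, edgeR, and 0.0356, DESeq2) and atp5f1e at -0.35 ± 0.17 (adjusted p = 0.233, edgeR). The difference of these genes from ATP5F1B was not tested. ATP5F1A had 1283, 1225 and 1371 CPM in cut tails and 1242, 1442 and 1655 CPM in uncut tails, which overlapped.

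The 9 calls rested on few libraries, and calls lower over all genes, 270 with all libraries, also moved with the libraries in the fit. Without replicate 1 or 3 of the cut DMSO group none of the 92 was called, beside 164 and 79 of all genes. Without replicate 1 or 4 of the uncut DMSO group none was called either, beside 134 and 108. Without uncut DMSO replicate 2 there were 2 of the 92, beside 168 of all genes. There were 17 without cut DMSO replicate 4, beside 243, and 20 without uncut SB431542 replicate 4, beside 596. The median of the 92 genes ran from -0.46 to -0.30 over those fits.

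**Figure D3:**
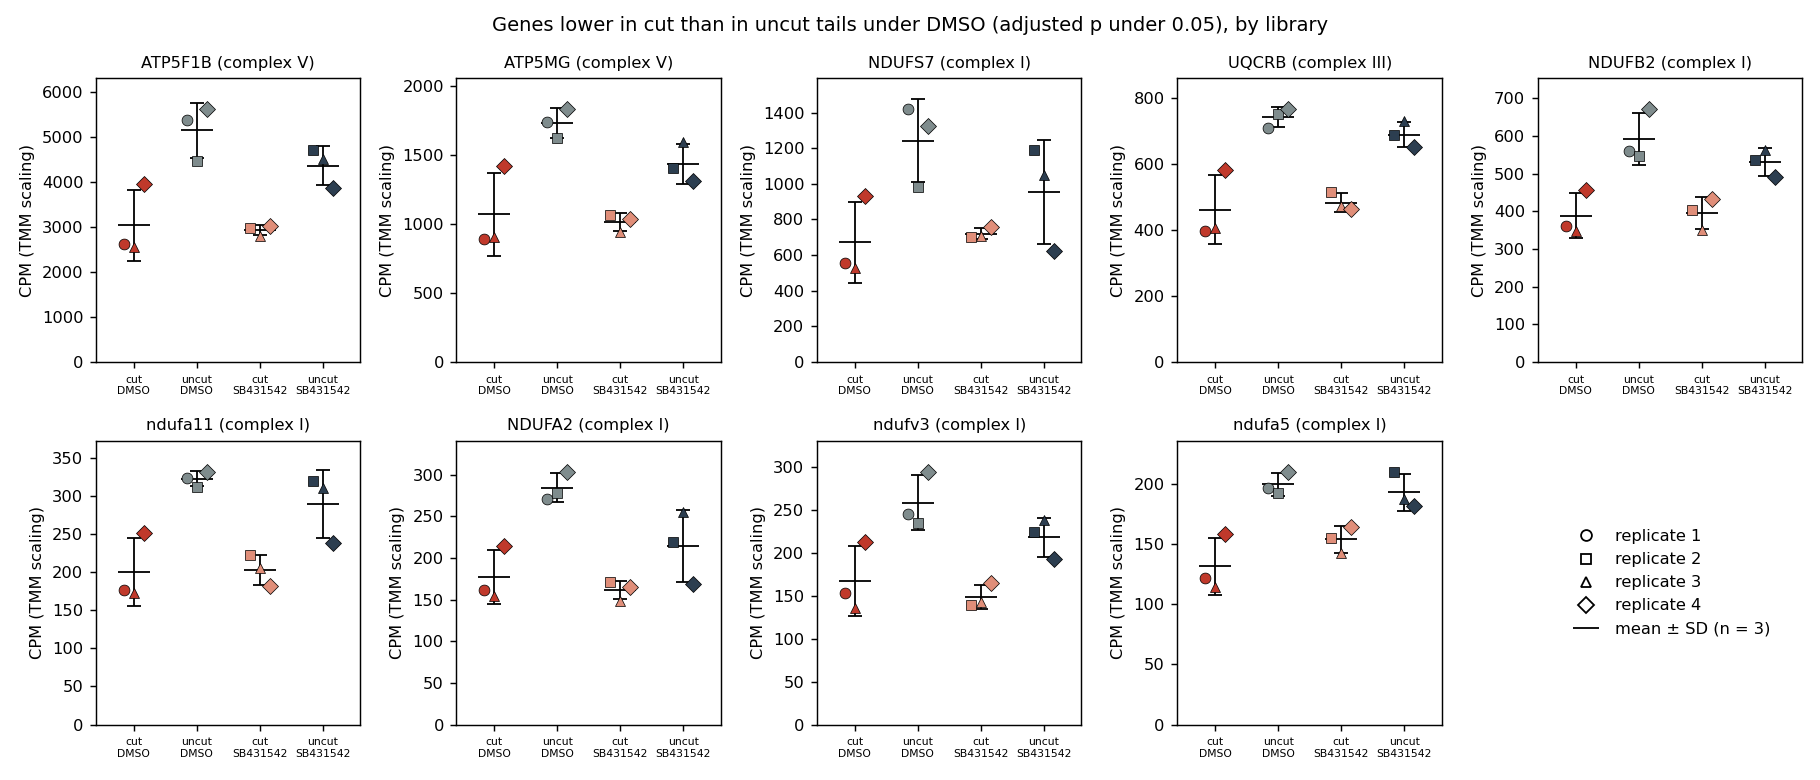
Level (vertical axis, CPM with TMM scaling, from 0) of the 9 genes called lower in cut than in uncut tails under DMSO, in each library of the 4 groups (horizontal axis); marker shape gives the replicate number and bars the mean ± SD. In all 9 the cut DMSO libraries lie below the uncut DMSO libraries, with cut replicate 4 the highest of its group, and with total-count scaling ATP5F1B alone of the 9 stayed called.

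Under SB431542 the excision difference was of similar size, and no gene passed the threshold. By edgeR 0 of the 92 were called in either direction, where 0.572% of all genes were called lower and 1.49% higher. At an unadjusted p under 0.05, 48 were lower and 0 higher (7.46% of all genes lower). DESeq2 called 5 of the 92 and 231 of the 13978 genes lower, and limma-voom 0 of the 92 and 63 of all genes. Cut and uncut libraries did not overlap, with cut lower, for 54 of the 92 and 8.95% of all genes. Without uncut replicate 4, which stood apart, that count was 69 of 92 and 15.3% of all genes. With TMM scaling 90 of the 92 log2 fold changes lay below 0, beside 49.8% of all genes. Of the 1609 genes that averaged at least 50 CPM, 46 were called lower and 34 higher by edgeR. At an unadjusted p under 0.05, 332 of them were lower, 359 were lower without overlap, and 1022 lay below 0.

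The medians of complexes I to V under SB431542 were -0.42, -0.40, -0.34, -0.35 and -0.36, against -0.41, -0.53, -0.32, -0.25 and -0.33 under DMSO. ATP5F1B had 2973, 2809 and 3015 CPM in cut tails under SB431542, against 4713, 4503 and 3869 CPM in uncut tails. Again the groups did not overlap, with a log2 fold change of -0.57 ± 0.18 (adjusted p = 0.108, edgeR). UQCRB had 515, 472 and 464 CPM in cut tails and 687, 730 and 653 CPM in uncut tails (-0.51 ± 0.17, adjusted p = 0.119, edgeR). NDUFS7 had 699, 705 and 755 CPM in cut tails and 1190, 1047 and 624 CPM in uncut tails, where uncut replicate 4 was below all cut libraries (-0.41 ± 0.24, adjusted p = 0.443, edgeR).

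The most negative fold changes in that comparison, of ATP5PD and NDUFS6, lay nearer to 0 without that replicate. ATP5PD, subunit d of the stalk that holds the ATP synthase head, had 268, 257 and 294 CPM in cut tails under SB431542, against 359, 366 and 847 CPM in uncut tails, with the last value in replicate 4. Its log2 fold change was -0.94 ± 0.30 with all libraries (adjusted p = 0.130, edgeR) and -0.41 without replicate 4 (adjusted p = 0.319, edgeR). NDUFS6, a zinc-binding subunit of complex I, had 68.6, 76.9 and 78.8 CPM in cut tails and 106, 93.1 and 212 CPM in uncut tails, with -0.88 ± 0.27 from all libraries (adjusted p = 0.111, edgeR) and -0.42 without replicate 4. NDUFV2, a subunit of the NADH-oxidising module with an iron-sulfur cluster, had the smallest adjusted p of the 92, at 28.0, 21.1 and 32.5 CPM in cut tails and 37.6, 47.1 and 55.6 CPM in uncut tails (-0.79 ± 0.22, adjusted p = 0.0731, edgeR).

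The test of the interaction, which asks whether the excision difference itself differed between SB431542 and DMSO, called 0 of the 92 and 0 of all genes by edgeR, or 0%. At an unadjusted p under 0.05 it gave 0 of the 92 and 5.05% of all genes, and DESeq2 called 0 of the 92. The interaction's log2 values had a median of -0.01 and ran from -0.66 to 0.71, the highest for SDHAF4. ATP5F1B stood at 0.19 ± 0.25 in this test, and with errors of that size the excision differences under both treatments are not shown to be alike.

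Between SB431542 and DMSO the summed level of the 92 genes differed by less than the SD of the DMSO libraries, in cut and in uncut tails. In uncut tails, with means of 40452 and 41898 CPM, it differed by more than the SD of the SB431542 libraries, 492 CPM. The means differed by -2.13% in cut tails and by -3.45% in uncut tails, both with overlapping libraries. In cut tails 1 of the 92 was called higher by edgeR, where 0.179% of all genes were, and 0 lower, where 0.107% of all genes were, with 8 higher and 4 lower at an unadjusted p under 0.05, against 8.52% and 6.77% of all genes. In uncut tails edgeR called 0 of the 92, where 0.0644% of all genes were called higher and 0.0143% lower, with 10 higher and 4 lower at an unadjusted p under 0.05 (10.1% and 6.38% of all genes). There DESeq2 called 3 of the 92 higher, beside 270 of the 13978 genes, and limma-voom called 0 of the 92. The 3 were ATP5PD, NDUFS6 and a minor ID of COX7A2 (ENSDARG00000110700), described below. ATP5PD had 359, 366 and 847 CPM in uncut tails under SB431542, against 329, 170 and 299 CPM under DMSO. NDUFS6 had 106, 93.1 and 212 CPM, against 80.6, 45.4 and 76.5 CPM. The highest value of each was in SB431542 replicate 4, which stood apart. The medians of the 92 log2 fold changes were 0.01 in cut tails and -0.02 in uncut tails, beside 0.00 and 0.01 over all genes. These 2 comparisons use the same cut and uncut libraries as the excision comparisons and are not independent of them.

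**Figure D4:**
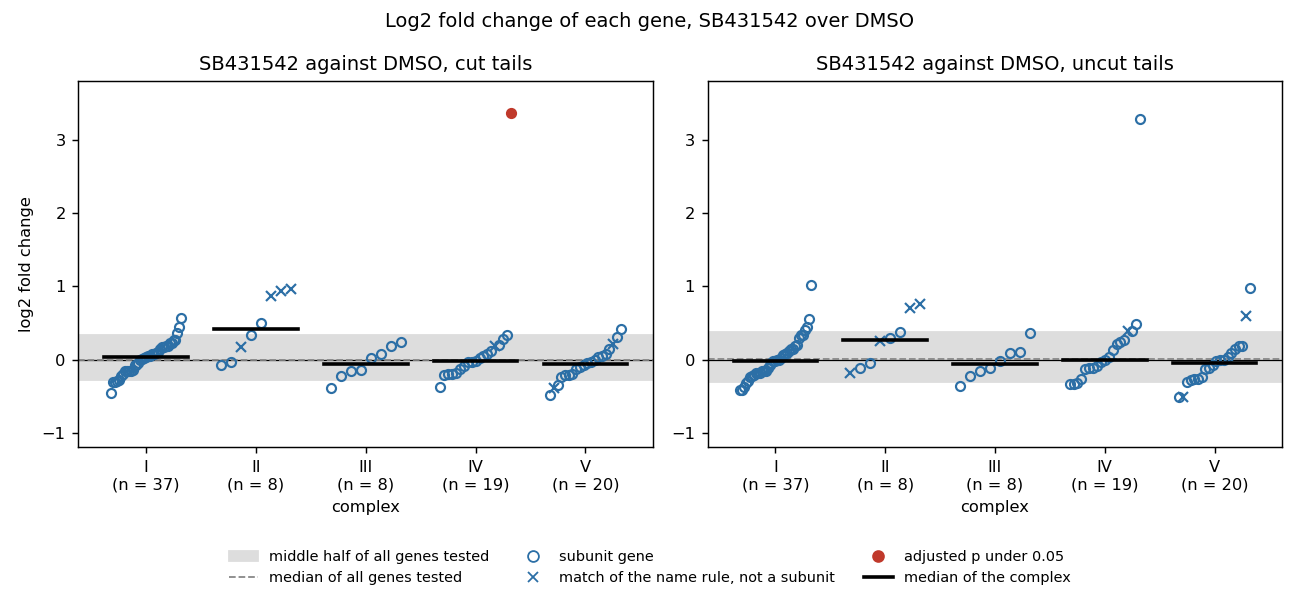
Log2 fold change of each of the 92 genes, SB431542 over DMSO (vertical axis), by complex (horizontal axis), in cut tails (left) and uncut tails (right); symbols as in the plot of the excision fold changes. Medians lie near 0 except in complex II, at 0.42 in cut tails and 0.27 in uncut tails, where 4 of the 8 genes are assembly factors and the medians of the other 4 are 0.16 and 0.12; the red point is COX7A2 (ENSDARG00000110700).

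By level, complex II was higher under SB431542 in cut tails, and complex III lower in uncut tails, without overlap. For complex III the gap was narrow, from 3211 CPM under SB431542 to 3218 CPM under DMSO. The libraries of complexes I, IV and V overlapped between treatments in cut and in uncut tails, as did those of complex III in cut tails. In cut tails complex II summed to 1060, 967 and 935 CPM under SB431542, against 819, 751 and 886 CPM under DMSO, a mean 20.6% higher with no overlap. In uncut tails complex II summed to 1623, 1181 and 1132 CPM under SB431542, against 1166, 951 and 1357 CPM under DMSO, which overlapped. Complex III summed to 3028, 3175 and 3211 CPM in uncut tails under SB431542, against 3218, 3240 and 3646 CPM under DMSO, a log2 ratio of -0.10 that became 0.00 with total-count scaling. By fold change, the median of complex II was 0.42 in cut tails and 0.27 in uncut tails, or 0.16 and 0.12 over its 4 subunits, of which 2 were below 0 in each comparison. Without the assembly factors the difference of the complex II sums in cut tails was 16.1%, at 943, 831 and 837 CPM under SB431542 and 746, 687 and 815 CPM under DMSO.

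None of the genes of complex II was called between treatments by edgeR, while DESeq2 called SDHAF4 in cut tails. SDHC had 229, 219 and 230 CPM in cut tails under SB431542, against 182, 160 and 137 CPM under DMSO, with no overlap (0.50 ± 0.17, adjusted p = 0.168, edgeR). SDHA had 373, 314 and 289 CPM in cut tails under SB431542 and 248, 233 and 289 CPM under DMSO, which met at 289 CPM (0.34 ± 0.20, adjusted p = 0.437, edgeR). SDHB, the iron-sulfur subunit, and SDHD, the other membrane anchor, stood at -0.07 and -0.03. SDHAF4 had 39.2, 36.5 and 33.5 CPM in cut tails under SB431542, against 17.3, 16.5 and 22.4 CPM under DMSO (0.96 ± 0.24, adjusted p = 0.0850, edgeR, and 0.0261, DESeq2). SDHAF2, which attaches the flavin to SDHA, and sdhaf1, which helps load iron-sulfur clusters into SDHB, stood at 0.93 ± 0.32 and 0.87 ± 0.33 with adjusted p = 0.184 and 0.215 by edgeR.

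The gene called between treatments by edgeR was a second ID of COX7A2 (ENSDARG00000110700), at no more than 3.42 CPM in any library. It had 14, 30 and 29 counts in cut tails under SB431542, against 4, 3 and 1 under DMSO, and in uncut tails 29, 7 and 26 under SB431542, against 3, 0 and 3 under DMSO. The log2 fold change was 3.36 ± 0.63 in cut tails (adjusted p = 0.0193, edgeR) and 3.28 ± 0.71 in uncut tails (adjusted p = 0.0698, edgeR). No SB431542 library overlapped a DMSO library in either comparison. The ID reached 10 counts in 5 libraries, all under SB431542, so it was kept only through the groups where it is high. Its call and its lack of overlap are therefore partly tied to the count minimum. The main COX7A2 (ENSDARG00000053217) ran from 414 to 754 CPM, with -0.20 ± 0.18 in cut tails and 0.03 ± 0.18 in uncut tails. Near-identical copies can share reads, and how such reads were counted is not stated in the labels, so the count of the minor ID is uncertain. In cut tails DESeq2 gave it no adjusted p, with an unadjusted p of 8.50e-06, and in uncut tails an adjusted p of 0.0103. In cut tails it was not called by limma-voom, with the replicate block or by the earlier quasi-likelihood method, nor without any 1 of the 3 cut DMSO libraries or cut SB431542 replicates 3 and 4.

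Since shares within the 92 genes do not depend on the library scaling, they compare the complexes among themselves. Complex IV made up 23.3%, 22.6% and 21.7% of the summed CPM in cut tails under DMSO, against 19.7%, 21.1% and 20.6% in uncut tails, without overlap. Under SB431542 it made up 22.8%, 22.7% and 22.6% in cut tails, against 21.3%, 21.5% and 22.7% in uncut tails, where replicate 4 of the uncut group reached the cut values. Complex I went the other way under DMSO, at 23.3%, 23.8% and 23.9% in cut tails against 25.2%, 24.5% and 24.6% in uncut tails, without overlap. The shares add up to 100%, so those of complexes I and IV are tied and are not separate results. By summed CPM the log2 ratio of complex I, -0.49, lay near those of complexes II, III and V, at -0.50, -0.43 and -0.45, with complex IV at -0.28. Under SB431542 complex I made up 24.4%, 24.5% and 23.8% in cut tails, against 24.9%, 24.5% and 23.8% in uncut tails, which overlapped. Complex II made up 3.43%, 3.40% and 2.87% in cut tails under SB431542 and 2.78%, 2.71% and 2.42% in cut tails under DMSO, without overlap. In uncut tails its shares overlapped, at 4.01%, 2.89% and 2.84% under SB431542 and 2.83%, 2.47% and 2.95% under DMSO. Moving NDUFA4 to complex IV changed the log2 ratio of complex IV between cut and uncut tails under DMSO from -0.28 to -0.31.

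**Figure D5:**
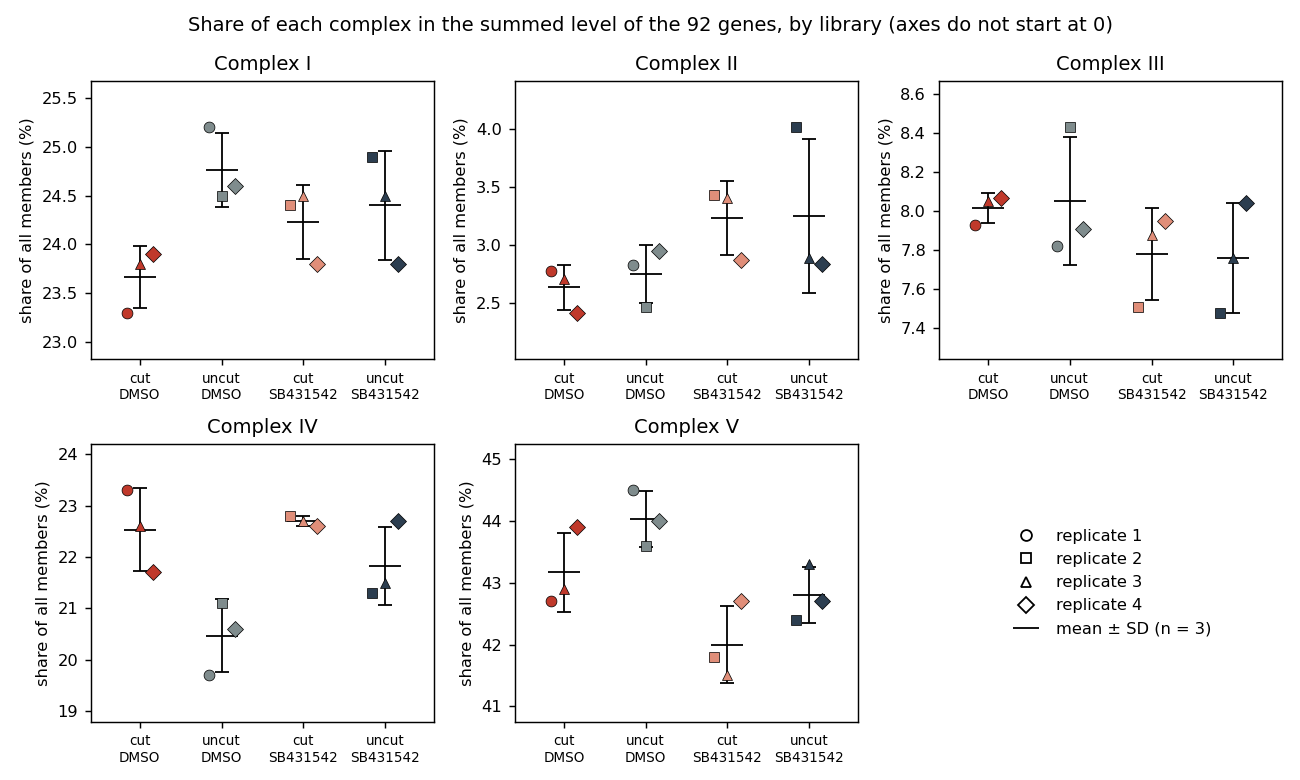
Share of each complex in the summed CPM of the 92 genes (vertical axis, percent, not starting at 0) in each library of the 4 groups (horizontal axis); marker shape gives the replicate number and bars the mean ± SD. Under DMSO the cut libraries lie above the uncut libraries for complex IV and below them for complex I, and in cut tails the SB431542 libraries lie above the DMSO libraries for complex II.

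Several subunits of complex IV and the c subunit of complex V are encoded by more than 1 gene, and in mammals some of these forms are specific to a tissue. COX4I1, the common form of a regulatory subunit, had 778, 752 and 898 CPM in cut tails under DMSO, against 1147, 965 and 1294 CPM in uncut tails, with no overlap (-0.49 ± 0.16, adjusted p = 0.0861, edgeR, and 0.0399, DESeq2). COX4I2, the form linked to hypoxia in mammals, stayed between 10.9 and 20.0 CPM in all libraries (-0.25 ± 0.21). The abundant gene of the cox6a pair, cox6a1 (ENSDARG00000022438), had 533, 544 and 672 CPM in cut tails and 571, 544 and 706 CPM in uncut tails, which overlapped (-0.06 ± 0.17). Its partner COX6A1 (ENSDARG00000054588) was scarce, at 4.95, 8.66 and 9.14 CPM in cut tails and 16.5, 10.9 and 17.0 CPM in uncut tails (-0.99 ± 0.34, adjusted p = 0.103, edgeR).

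In the cox5 genes, cox5aa and COX5A stood at -0.35 and -0.24, COX5B (ENSDARG00000015978) at -0.40 and its minor ID (ENSDARG00000068738) at -0.81, none called. The cox7a1 gene, whose mammalian form is that of heart and skeletal muscle, was low at 41.2, 37.9 and 58.0 CPM in cut tails and 54.1, 35.4 and 81.4 CPM in uncut tails, which overlapped (-0.33 ± 0.34). In the cox8 pair, cox8a was at -0.25 ± 0.16 and the scarce cox8b at -0.66 ± 0.29. The scarce cox6b1 was the 1 gene of the 92 with a positive value in both excision comparisons, 0.45 ± 0.25 under DMSO and 0.41 ± 0.27 under SB431542, with adjusted p = 0.333 and 0.498 by edgeR. The abundant cox6b2 stood at -0.20 ± 0.16 and -0.35 ± 0.16. With total-count scaling cox6b1 was called higher under DMSO.

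The c subunit genes, whose proteins form the rotating ring of the ATP synthase, had fold changes above the complex V median of -0.33 under DMSO. The most abundant of them, atp5mc3b, had 1500, 1370 and 1705 CPM in cut tails under DMSO, against 1799, 1618 and 1955 CPM in uncut tails, which overlapped (-0.23 ± 0.16). The others, atp5mc1 and ATP5MC3, stood at -0.20 ± 0.19 and -0.07 ± 0.22. The inhibitors atp5if1a and atp5if1b stood at -0.50 ± 0.20 and -0.03 ± 0.24 under DMSO, and -0.38 ± 0.21 and -0.41 ± 0.24 under SB431542. None of these 5 genes was called in either comparison.

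Other parts of the mitochondrion were compared beside these genes. Of the 13 subunits encoded in the mitochondrial genome, 4 were called lower and 0 higher in cut against uncut tails under DMSO, with a median log2 fold change of -0.56, and 1 lower under SB431542, with a median of -0.52. MT-ND2, a proton-pumping subunit of complex I, averaged 5156 ± 563 CPM in cut tails and 9354 ± 2040 CPM in uncut tails under DMSO (SD, n = 3 each, -0.86 ± 0.20, adjusted p = 0.0150, edgeR). The others called under DMSO were mt-nd4l, MT-ND6 and MT-CO2, and the one under SB431542 was MT-ND4 (-0.69 ± 0.16, adjusted p = 0.0337, edgeR). The ratio of nuclear to mitochondrially encoded counts was 0.400, 0.434 and 0.458 in cut tails under DMSO, against 0.437, 0.408 and 0.379 in uncut tails, which overlapped.

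Electron carriers and most genes of the tricarboxylic acid cycle had values in the same direction with TMM scaling. The cytochrome c gene cycsb averaged 494 ± 73.0 CPM in cut tails and 823 ± 107 CPM in uncut tails under DMSO (-0.73 ± 0.17, adjusted p = 0.0159, edgeR), and CYC1, the cytochrome c1 of complex III, 536 ± 101 and 804 ± 165 CPM (-0.59 ± 0.20, adjusted p = 0.102, edgeR). Of 21 genes of the tricarboxylic acid cycle and its pyruvate supply, 3 were called lower under DMSO, namely CS (citrate synthase, -0.99 ± 0.17, adjusted p = 0.00157, edgeR), FH (fumarase, -0.94 ± 0.20) and pdha1a (pyruvate dehydrogenase, -0.65 ± 0.16), and the median was -0.30. Under SB431542 CS and pdha1a were called lower, with a median of -0.31. Of the 21 genes, 17 lay below 0 and 4 above under DMSO, and 19 below and 2 above under SB431542. None of the 74 mitochondrial ribosomal protein genes was called by edgeR in either excision comparison, with medians of -0.09 and -0.16, nor any of 10 regulators of mitochondrial biogenesis, with medians of -0.21 and -0.07.

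Assembly factors of the complexes mostly had values above 0 between SB431542 and DMSO. Of 46 tested, 0 were called between cut and uncut tails by edgeR, with medians of -0.19 under DMSO and -0.20 under SB431542. Between SB431542 and DMSO their median was 0.32 in cut tails, with 35 of 46 above 0, and 0.28 in uncut tails, with 34 of 46 above 0, where 50.4% and 50.6% of all genes were above 0. SB431542 and DMSO libraries did not overlap, with SB431542 higher, for 18 of the 46 in cut tails and 12.6% of all genes. In uncut tails this held for 10 of the 46 and for 1325 of the 13978 genes. There the summed level of the factors overlapped, at 1483, 1083 and 1088 CPM under SB431542 and 1099, 928 and 1202 CPM under DMSO. COX15, needed to make the heme A of complex IV, averaged 20.7 ± 5.45 CPM in cut tails under SB431542 and 8.09 ± 0.940 CPM under DMSO, and was the 1 factor called (1.36 ± 0.27, adjusted p = 0.0343, edgeR).

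Markers of skeletal muscle were also lower in cut tails. Of 24 skeletal muscle markers 12 were called lower and 0 higher in cut against uncut tails under DMSO, with a median of -0.69, and 3 lower under SB431542, with a median of -0.57. Their summed level was 99175 to 140755 CPM in cut tails and 187369 to 211007 CPM in uncut tails under DMSO, and 115300 to 138294 CPM in cut tails and 180414 to 207262 CPM in uncut tails under SB431542, with none of the markers at 0. The 92 genes' counts divided by those of the muscle markers gave 0.265 ± 0.0124 in cut tails and 0.209 ± 0.00844 in uncut tails under DMSO, and 0.237 ± 0.00883 in cut tails and 0.211 ± 0.0166 in uncut tails under SB431542 (SD, n = 3 each). The part of muscle in the difference of the 92 genes was not tested.

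Of the remaining marker lists in cut against uncut tails under DMSO, the 13 ionocyte and 7 erythrocyte markers had no call by edgeR. Of 18 neuron and glia markers 4 were lower, of 16 epidermis markers 8 were lower, and of 16 notochord markers 8 were lower and 2 higher. Of 13 macrophage and neutrophil markers 10 were higher, and of 21 cell cycle markers 6 were higher. Under SB431542 the calls were 7 lower for notochord, 6 higher for macrophages and neutrophils, 3 higher for the cell cycle and 0 for the ionocyte, erythrocyte, neuron and epidermis lists. Their part in the values of the 92 genes was not tested.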

How the data were processed

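Messenger RNA of 12 pooled tail samples was read with the Lexogen QuantSeq kit, per the labels' protocols. The authors deposited estimated counts per Ensembl gene, not normalized. Between 23.1% and 26.68% of a library's positive values were fractional. GRCz11 is the build in the submitters' processing notes. Aligner and counter were not given in the sources used here. The authors' normalized table was not used.

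Rounded counts entered edgeR 4.0.16 (R 4.3.3), whose quasi-likelihood test was applied to the 13978 genes kept by filterByExpr. TMM factors ran from 0.8051 to 1.231. Dispersions were robust, the biological coefficient of variation was 0.261, and all 4 groups shared 1 fit. Two-sided p-values were adjusted over all genes of a comparison (Benjamini-Hochberg) and called under 0.05. The procedure was run on simulated counts with planted changes larger than most differences described here. That run does not cover differences of this size or the choice of scaling. Complex sums are sums of CPM and carry no test. Symbols came from a table matching 23598 of the 30258 IDs.

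The genes and the 14 lists were chosen with earlier results of these data known. Named genes were, per comparison, up to 6 called in each direction, and per complex the most abundant and the most changed gene of at least 5 CPM. Isoform families and up to 3 genes of a list were also named. Further genes were named for their roles after their values were seen. Alternatives were DESeq2 1.42.0, limma-voom (limma 3.58.1), other scalings and filters, a replicate block, fits restricted to the groups of 1 comparison, and leaving out each library.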

Additional observations from a re-analysis of the deposited data

How the results depend on the processing

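Under other settings, the number of genes of the 92 called lower in cut against uncut tails under DMSO was 21 with DESeq2, 19 with a fit of only the 2 groups compared, 3 with the replicate block, and 1 with total-count scaling, where 1 was also called higher, against 9 by edgeR. Over all genes, the number called lower in those settings was 417, 607, 220 and 98, against 270 by edgeR. Leaving out 1 library at a time gave 0 to 20 of the 92. Under SB431542, DESeq2 gave 5 lower, beside 231 of all genes, and leaving out 1 library gave 0 to 1. The fits with 1 were those without cut DMSO replicate 4 and without uncut SB431542 replicate 2 or 4, beside 107, 114 and 126 of all genes. For SB431542 against DMSO in cut tails, where 1 was called higher, limma-voom, the replicate block and edgeR's earlier quasi-likelihood method gave 0, no filter gave 2, the fit of only the 2 groups 4, DESeq2 1 that was SDHAF4 (it gave COX7A2 no adjusted p), and leaving out 1 library 0 to 3. Over all genes, the calls higher in cut tails were 93 with no filter, 371 with the 2 groups and 204 with DESeq2. They were 314 without uncut SB431542 replicate 4, the fit that gave the 3. In uncut tails DESeq2 gave 3 higher, beside 270 of all genes, no filter 1, beside 93, and leaving out 1 library 0 to 3. The 3, with the symbols ATP5PD, COX7A2 and NDUFS6, came from the fit without uncut SB431542 replicate 3, which kept replicate 4. In that fit 473 of all genes were called higher. With total-count scaling the median log2 fold change was -0.03 for cut against uncut tails under DMSO, -0.08 under SB431542 and 0.08 for SB431542 against DMSO in uncut tails. The log2 ratios of complexes I to V were then -0.16, -0.16, -0.10, 0.05 and -0.12 under DMSO and -0.11, -0.11, -0.10, -0.04 and -0.13 under SB431542, and for SB431542 against DMSO in uncut tails 0.03 (I), 0.00 (III), 0.15 (IV) and 0.01 (V). The cause of these differences was not tested. Total-count scaling, the earlier quasi-likelihood method, the placing of NDUFA4 and the count without uncut SB431542 replicate 4 were added after seeing the data.

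The labels do not say what the replicate numbers share, so the numbers were not taken as pairs. Whether same-numbered libraries share a source was not tested. Between cut and uncut tails the deviations of same-numbered libraries correlated at 0.03 and 0.012 under DMSO and at 0.179, -0.029 and 0.343 under SB431542. Between SB431542 and DMSO they correlated at 0.102 and 0.128 in cut tails and -0.024 and 0.085 in uncut tails. Libraries of different number ran from -0.047 to 0.025 and from -0.284 to 0.182 in the first 2 comparisons. In the last 2 they ran from -0.1 to 0.071 and from -0.124 to 0.16. With the replicate block the 3 genes called lower under DMSO were ATP5F1B, ATP5MG and UQCRB. Depth limits the scarcest genes, such as COX7A2 (ENSDARG00000110700) with 0 to 30 counts per library. With 3 libraries a group, an exact permutation test of a single value cannot go below p = 0.1.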
